A study of Mus musculus with 6 samples.

Results

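Histone lysine methyltransferases and demethylases were followed as a group of 49 genes among the 55450 genes counted in adult mouse cortex. The members were taken from the gene symbols of the GENCODE M21 annotation as the enzymes, and their SET-domain or JmjC-domain relatives, that add or remove methyl groups on histone lysines. Of these, 33 were placed with the methyltransferases and 16 with the demethylases. The rule used no measured value, although the list was drawn up with earlier results of these data known. Polyadenylated RNA was measured in 6 libraries, of which 3 were heterozygous for Setd5 and 3 were wild type. The labels describe the animals as adult and give no allele, strain, sex or treatment. Separate animals are not named for the libraries, so p-values reflect how these 6 libraries vary, and part of that variation could be technical.

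Lysine methylation on the tails and core of histones marks the state of chromatin. Methylation of H3K4 lies at promoters and enhancers, that of H3K36 over transcribed gene bodies, and that of H3K9, H3K27 and H4K20 in silenced or compacted regions. SET-domain enzymes and the unrelated Dot1l write these marks, while the flavin-dependent Kdm1 enzymes and the JmjC-domain enzymes erase them. Mutations in many of these genes cause neurodevelopmental disorders in humans. Setd5 and Kmt2e encode a pair of related SET proteins that resemble yeast Set3, and whether their SET domains act on histones is debated.

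The libraries held from 82850628 to 92860628 counts. Levels are given as CPM, the count scaled to an equal library size, and a count of 0 would allow up to 0.0323 to 0.0362 CPM, which covers counting error only. Every member had a count in every library, from 173 to 18334, and all 49 passed the filter on low counts. Heterozygous replicate 3 and wild type replicate 3 had high Xist counts (78747 and 69096) and the other 4 libraries 38 to 78, so each group held 1 library of this kind. Counts of the Y-linked Ddx3y were 150 and 156 in replicate 3 of each group and 8157 to 9751 in the other libraries. Each group thus held RNA of more than 1 animal. Neuronal markers were abundant, at a summed level of 5833 to 6772 CPM. Markers of striatal neurons varied widely, from a summed 125 to 360 CPM in 5 libraries to 842 CPM in wild type replicate 3.

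Setd5 had the largest difference between genotypes of the 49 members, and the fitted differences of the other 48 lay between -0.28 and 0.27. By edgeR's quasi-likelihood test 0 of 49 members passed an adjusted p under 0.05, where 0% of the 27939 genes tested passed. DESeq2 called 1 member, Setd5, against 0.222% of genes tested. At an unadjusted p under 0.05 in edgeR, 0 members were higher in heterozygous libraries, where 2.44% of all genes were. In the other direction 2 members, Setd5 and Setd3, met that level, where 3.38% of all genes did. Fitted levels were above wild type for 30 members and below for 19. The median log2 difference was 0.03, against -0.001 for all genes tested. The median size of the difference, ignoring its sign, was 0.09 for the 48 members without Setd5, 0.12 for all genes and 0.08 for the 18985 genes with a mean of at least 1 CPM.

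**Figure D1:**
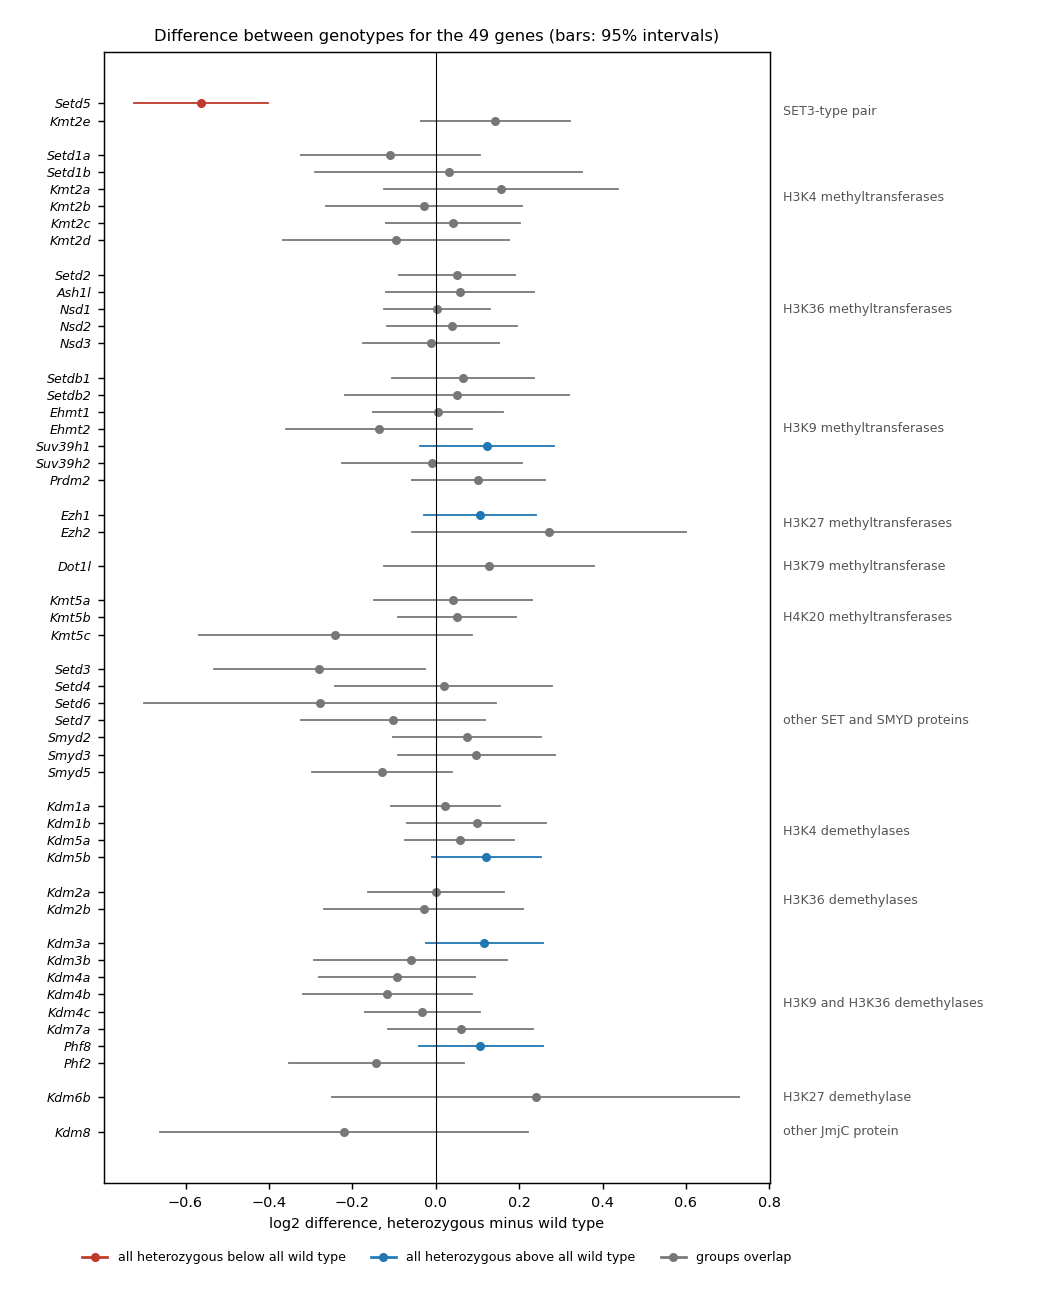
Log2 difference between heterozygous and wild type libraries for each of the 49 genes by role, with 95% intervals from edgeR's quasi-likelihood fit. Setd5 sits at -0.56, and the other points lie between -0.28 and 0.27.

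All 3 heterozygous libraries lay above all 3 wild type libraries for 5 members, which were Suv39h1, Ezh1, Kdm5b, Kdm3a and Phf8. That is a description beside 5.88% of all genes tested. The reverse held for Setd5 alone, beside 5.85% of all genes. For 17 members the 95% interval of the difference lay within 0.25 on the log2 scale in either direction, where 20.5% of all genes tested had such an interval. All of those genes had a mean of at least 1 CPM, as every member did, and they made up 30.2% of the genes at that level. These intervals bound the size of a difference and do not show that a gene was the same in both genotypes. With wild type replicate 1 left out 9 members had such an interval, and with heterozygous replicate 2 left out 11 had.

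Setd5 transcript was at 67.7% of its wild type level while its closest relative Kmt2e was not lower. Setd5 (ENSMUSG00000034269.12) lies on the plus strand at chr6:113077365-113153435 in GRCm38. Heterozygous replicates 1 to 3 had 69.5, 68.7 and 75.3 CPM, and wild type replicates 1 to 3 had 111, 97.0 and 108 CPM. Every heterozygous library lay below every wild type library. Setd5 is the gene that defines the genotype, so its lower level serves as a check of the labels. The log2 difference was -0.56 (SE 0.07), which is 67.7% of wild type. The unadjusted p in edgeR's quasi-likelihood test was 1.845e-05, rank 2 of the 27939 genes tested. The adjusted p was 0.258 in that test and 3.08e-07 in DESeq2, and across all fits run it ranged from 3.08e-07 to 0.9999. The value of 0.9999 came from edgeR's fit without heterozygous replicate 1, where the unadjusted p was 0.000216. The two-sided exact permutation p was 0.1, which is as low as 3 against 3 libraries can go. In bulk tissue fewer cells of a type and less RNA per cell cannot be told apart. Reads of a mutant transcript that still match the gene count as Setd5.

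Kmt2e (ENSMUSG00000029004.15, chr5:23434441-23504235, plus strand) is the other Set3-like gene. It was at 146, 134 and 132 CPM in heterozygous and 133, 111 and 128 CPM in wild type replicates 1 to 3. Heterozygous replicate 3 lay below wild type replicate 1, so the groups overlapped, and wild type replicate 2 was the lowest of the 6. The log2 difference was 0.14 (SE 0.08, edgeR adjusted p = 0.864), with a 95% interval from -0.04 to 0.32.

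**Figure D2:**
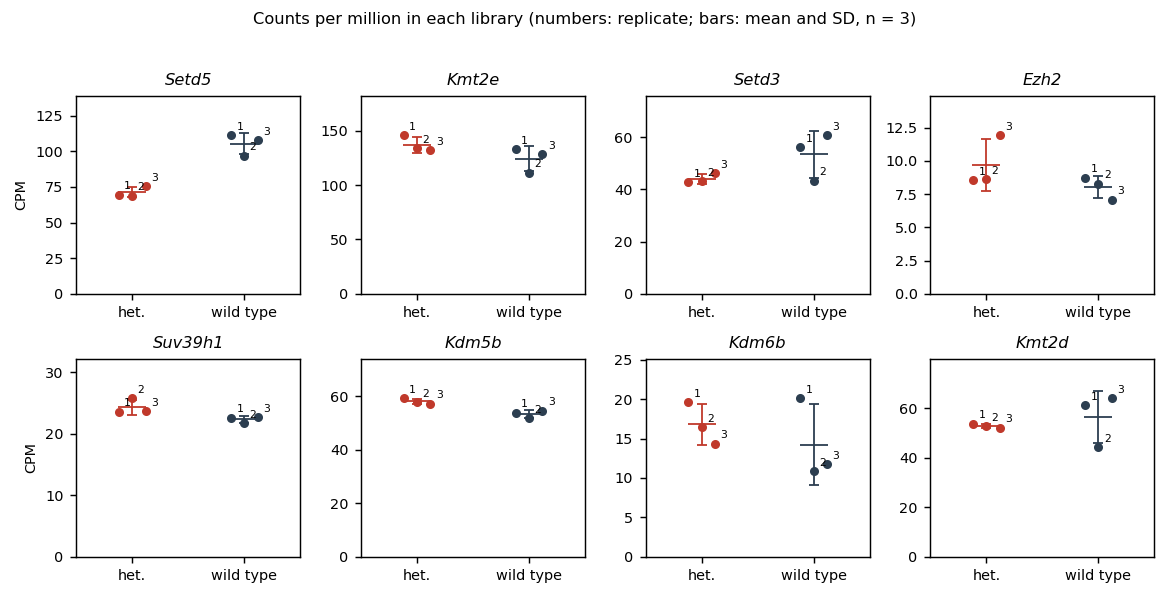
CPM of 8 members in each library, with group mean and SD (n = 3 each) and axes from 0. Setd5 separates the genotypes with a gap from 75.3 to 97.0 CPM, while Ezh2, Kdm6b and Kmt2d show 1 or more libraries apart from the rest of their group.

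The 6 H3K4 methyltransferases write the mark of active promoters and enhancers. None met an unadjusted p under 0.05, and differences ran from -0.11 for Setd1a to 0.16 for Kmt2a. Kmt2a, the founding member of the mixed-lineage leukaemia family, had the highest level per length of the 6. It was at 118, 115 and 105 CPM in heterozygous and 123, 82.4 and 99.0 CPM in wild type replicates 1 to 3. Wild type values spanned the heterozygous ones. Without wild type replicate 1 the Kmt2a difference was 0.32 (edgeR adjusted p = 0.699). Setd1b, a catalytic subunit of a COMPASS complex, was the lowest per length. It was at 21.3, 18.5 and 17.9 CPM against 20.6, 14.5 and 21.3 CPM, with wild type replicate 2 below all others. Setd1a shares 52.3% of its exonic bases with other genes, the largest part with the same-strand model Gm49388, so which gene its reads came from is uncertain.

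The H3K36 methyltransferases had fitted differences with a median size of 0.04 on the log2 scale. All 5, which are Setd2, Ash1l, Nsd1, Nsd2 and Nsd3, had 95% intervals within 0.25, with differences from -0.01 to 0.06. Setd2 is the enzyme for trimethylation, and the Nsd proteins make the dimethylated form. Nsd2 was the highest per length, at 189, 187 and 180 CPM in heterozygous and 193, 182 and 167 CPM in wild type replicates 1 to 3. Nsd3, the lowest, was at 93.4, 93.2 and 90.0 CPM against 98.6, 83.7 and 96.5 CPM. In both genes the wild type libraries spread more widely than the heterozygous ones and enclosed them. Nsd1, the gene of Sotos syndrome, had heterozygous levels of 172, 172 and 172 CPM and wild type levels of 171, 167 and 176 CPM.

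Among the 7 H3K9 methyltransferases, differences ran from -0.14 for Ehmt2 to 0.12 for Suv39h1, with none at an unadjusted p under 0.05. Ehmt2 encodes G9a, which makes the dimethylated form together with the Ehmt1 protein. It was the highest per length, at 84.6, 86.6 and 84.5 CPM in heterozygous and 98.1, 77.9 and 105 CPM in wild type replicates 1 to 3. Wild type replicate 2 lay below the heterozygous libraries and the other wild type libraries above them. Setdb2, the lowest, was at 4.97, 4.79 and 5.36 CPM against 4.33, 5.23 and 5.04 CPM, with the groups interleaved. Suv39h1, an X-linked gene for an enzyme of constitutive heterochromatin, was at 23.6, 25.7 and 23.7 CPM against 22.6, 21.7 and 22.7 CPM. Its groups did not overlap, by a margin of under 1 CPM, and its difference was 0.12 (SE 0.07, edgeR adjusted p = 0.866).

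The catalytic subunits of PRC2, which methylate H3K27, were both above wild type without passing the test. Ezh1, the form typical of non-dividing cells, had a difference of 0.11 (SE 0.06) and groups that did not overlap. Ezh2, the form typical of dividing cells, was at 8.53, 8.64 and 11.9 CPM in heterozygous and 8.73, 8.28 and 7.09 CPM in wild type replicates 1 to 3. Heterozygous replicate 3 alone lay above the wild type range. The Ezh2 difference was 0.27 (SE 0.15, edgeR adjusted p = 0.864), and 0.09 without heterozygous replicate 3. Markers of dividing cells summed to 5.39, 10.2 and 14.6 CPM in heterozygous and 11.3, 12.4 and 6.60 CPM in wild type replicates 1 to 3, so heterozygous replicate 3 was the highest there too, and their part in the Ezh2 value was not tested. Dot1l, the H3K79 enzyme, differed by 0.13 (SE 0.11). Of the H4K20 enzymes Kmt5a and Kmt5b had intervals within 0.25, and Kmt5c differed by -0.24 (SE 0.15).

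In the group of other SET and SMYD proteins, several of which act mainly on proteins other than histones, differences ran from -0.28 to 0.10 across 7 genes. Setd3, the actin histidine methyltransferase (ENSMUSG00000056770.15, chr12:108106431-108179314, minus strand), was at 42.7, 43.2 and 46.1 CPM in heterozygous and 56.1, 43.3 and 60.7 CPM in wild type replicates 1 to 3. Wild type replicate 2 lay among the heterozygous libraries and the other wild type libraries lay above all of them. The difference was -0.28 (SE 0.11, edgeR adjusted p = 0.844). Its unadjusted p in edgeR's fit was 0.0339 with all libraries, 0.0898 without heterozygous replicate 1, 0.0908 without heterozygous replicate 2, 0.0983 with wild type replicate 1 left out and 0.112 when replicate 3 of that group was left out. Without wild type replicate 2 the difference was -0.41 (edgeR adjusted p = 0.369). Smyd2, the highest of the group per length, was at 52.0, 52.3 and 49.7 CPM against 50.01, 52.6 and 43.5 CPM, and Setd4, the lowest, at 7.18, 6.60 and 7.91 CPM against 7.65, 6.35 and 7.42 CPM. Neither gene separated the genotypes. Smyd2 shares 30.0% of its exonic bases with other genes, the largest part with the antisense model Gm37422.

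Of the 16 demethylases none met an unadjusted p under 0.05, and the median difference was 0.01. The 4 H3K4 demethylases among the members had differences from 0.02 for Kdm1a to 0.12 for Kdm5b. The sex-linked H3K4 demethylases Kdm5c and Kdm5d, which are not members, had differences of -0.04 (SE 0.14) and -0.11 (SE 1.37). Kdm5d was at 36.2, 39.6 and 0.176 CPM in heterozygous and 43.6, 38.1 and 0.136 CPM in wild type replicates 1 to 3. Replicate 3 of each group, the libraries with high Xist counts, had the highest Kdm5c levels, at 45.1 and 48.8 CPM. Both fitted differences average over these and the other libraries. Of the 4 members Kdm1a, also known as LSD1, was the highest per length, at 53.8, 52.7 and 52.7 CPM in heterozygous and 52.6, 53.6 and 50.5 CPM in wild type replicates 1 to 3. Kdm5b, a JmjC enzyme for the trimethylated form, was the lowest by the union of annotated exons, at 59.1, 57.7 and 57.1 CPM against 53.8, 51.7 and 54.5 CPM. With the longest transcript as the length Kdm1b was the lowest of the 4, at 5.23 CPM per kb in wild type, against 6.12 for Kdm5b. The Kdm5b groups did not overlap, and its difference of 0.12 (SE 0.06) had an edgeR adjusted p of 0.864. The H3K36 demethylases Kdm2a and Kdm2b differed by 0.00 and -0.03.

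The 8 demethylases of H3K9 and H3K36, including the Kdm7-type proteins with a PHD finger and a JmjC domain, ran from -0.14 for Phf2 to 0.12 for Kdm3a. Kdm7a, the highest per length, was at 120, 111 and 99.1 CPM in heterozygous and 110, 101 and 106 CPM in wild type replicates 1 to 3. Kdm3b, the lowest by the union of annotated exons, was at 34.3, 33.5 and 37.4 CPM against 35.5, 31.8 and 42.4 CPM. In both Kdm7a and Kdm3b the groups overlapped. With the longest transcript as the length Phf8 was the lowest, at 3.87 CPM per kb in wild type, against 5.75 for Kdm3b. Phf8, an X-linked gene whose loss causes intellectual disability in humans, was at 26.2, 26.0 and 27.4 CPM against 24.3, 24.4 and 25.2 CPM. Phf2 was at 22.7, 22.8 and 20.5 CPM against 24.6, 21.6 and 26.8 CPM. Phf8 separated the genotypes by a margin of under 1 CPM and Phf2 did not separate them.

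Kdm6b is the H3K27 demethylase among the members and is also known as an activity-responsive gene. It had the widest spread of all members within a genotype, with an SD of 0.38 on the log2 scale. It was at 19.6, 16.5 and 14.3 CPM in heterozygous and 20.1, 10.9 and 11.7 CPM in wild type replicates 1 to 3. Wild type replicate 1 was the highest of the 6 and the other wild type libraries were the lowest. The difference was 0.24 (SE 0.22, edgeR adjusted p = 0.901). Without wild type replicate 1 it was 0.57 (edgeR adjusted p = 0.631). The 12 immediate early genes summed to 1412, 1350 and 773 CPM in heterozygous and 1014, 626 and 493 CPM in wild type libraries. All 12 were above wild type, and 8 met an unadjusted p under 0.05, where 2.44% of all genes tested were higher at that level. The part of these 12 genes in the Kdm6b values was not tested. Kdm8, another JmjC protein, differed by -0.22 (SE 0.20).

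Levels between genes were compared as CPM per kb of exon. Among wild type libraries Smyd2 (17.9 ± 1.73), Ehmt2 (17.1 ± 2.57) and Setd7 (16.8 ± 2.25, SD, n = 3 each) were the highest and overlapped one another. Setd7 encodes a monomethyltransferase of H3K4 and of other proteins. A gap without overlap separated Setd7 from Kmt2e at 11.9 ± 1.09 (SD, n = 3). That gap held for the union of exons only. With the longest transcript as the length Nsd2, at 23.2 ± 1.67, stood beside Ehmt2 at 23.3 ± 3.50 (SD, n = 3 each), and Kmt2e ranked 7. Below Kmt2e the ordered levels overlapped from neighbour to neighbour down to Smyd3, at 2.57 ± 0.0884, which did not overlap Suv39h2 at 2.05 ± 0.151 (SD, n = 3 each). This was no break in the levels, since Kdm6b, next below Suv39h2, ranged from 1.56 to 2.89 and spanned both. The lowest members were Kdm2b (0.783 ± 0.0901), Kdm8 (1.10 ± 0.268), Setdb2 (1.20 ± 0.117) and Ezh2 (1.20 ± 0.127, SD, n = 3 each). Ezh2 ranked 46 of 49 by this length and 41 by the longest transcript. The members' median was 4.75 CPM per kb, against 2.301 for all genes tested and 4.94 for those with a mean of at least 1 CPM. By this measure Setd5 ranked 20 of 49 in wild type, at 5.73 ± 0.401, and 33 of 49 in heterozygous libraries, at 3.88 ± 0.196 CPM per kb (SD, n = 3 each). Its exons cover 18.35 kb over all annotated transcripts, while the longest transcript is 6.76 kb. With the longest transcript as the length Setd5 ranked 8 in wild type and 14 in heterozygous libraries.

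**Figure D3:**
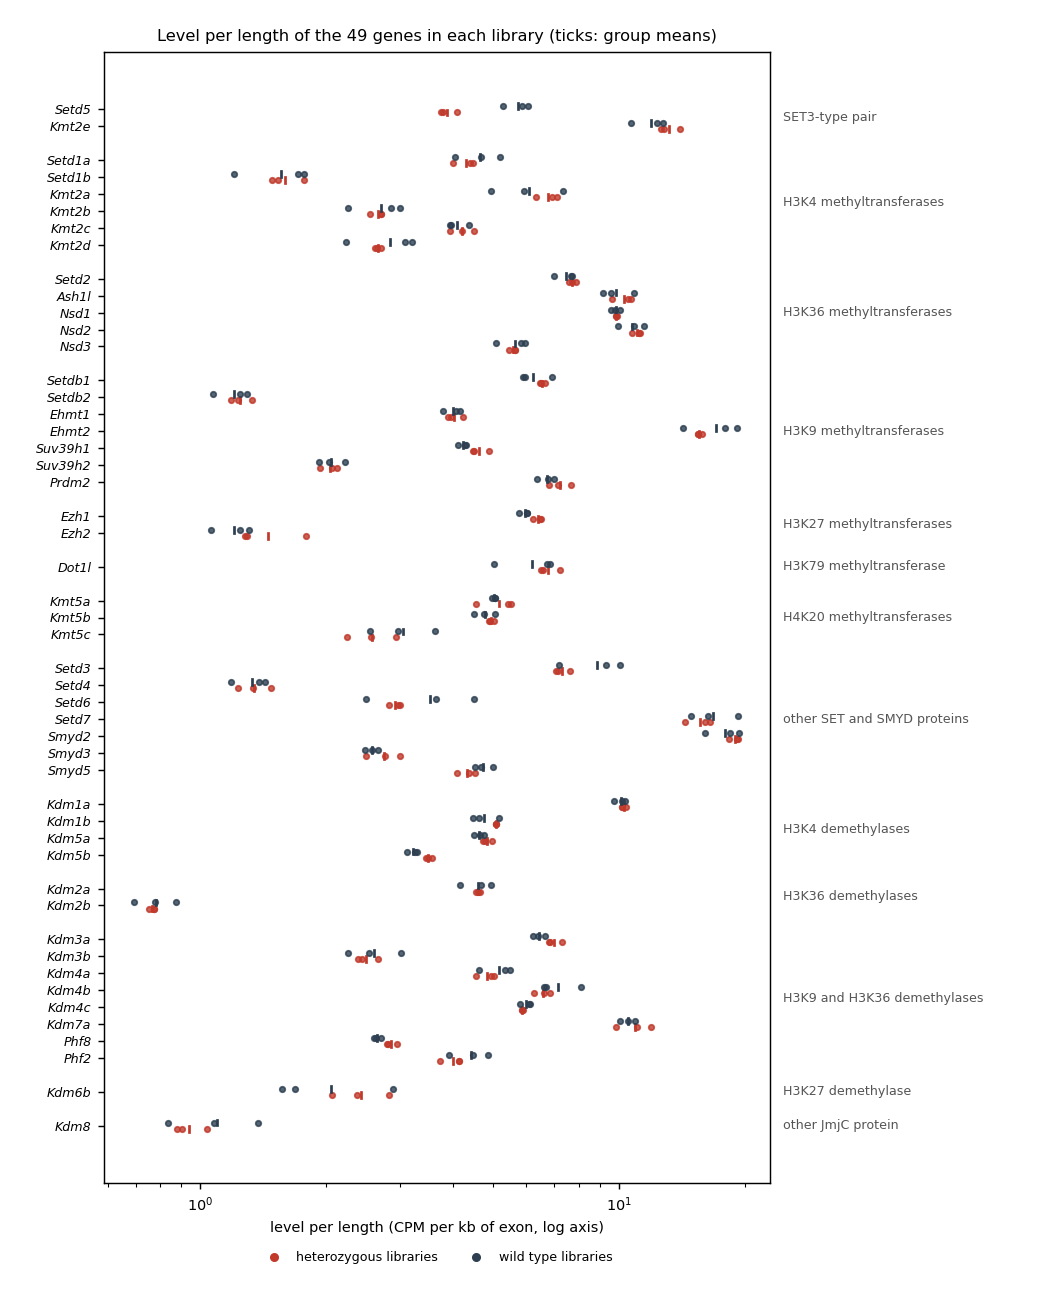
Level per length of each gene in the 6 libraries, in CPM per kb of exon on a log axis, with group means as ticks. Levels span from 0.783 for Kdm2b to 17.9 for Smyd2 in wild type, and the genotypes lie close together for members other than Setd5.

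Related enzymes were then compared within each library, as the log2 ratio of their levels per length in 20 pairs. The ratio of Setd5 to Kmt2e was -1.88, -1.78 and -1.62 in heterozygous and -1.07, -1.01 and -1.07 in wild type replicates 1 to 3. Kmt2e exceeded Setd5 by 2.07-fold in wild type and 3.38-fold in heterozygous libraries. With the longest transcript as the length the wild type values were nearly equal, at 1.09-fold. The ratio of Phf8 to Phf2 also separated the genotypes, at -0.56, -0.57 and -0.34 against -0.78, -0.58 and -0.85, a difference of 0.25. Both pairs gave a two-sided exact permutation p of 0.1 and an adjusted p of 0.667 over the 20 pairs, and 0.1 is the smallest value possible. The other 18 pairs overlapped between genotypes. With wild type replicate 2 left out 8 pairs did not overlap, and 7 with heterozygous replicate 3 or wild type replicate 1 left out. Fewer libraries overlap less often, and the share of single genes without overlap was 26.34%, 23.67% and 22.16% in these comparisons, against 11.73% with all 6 libraries. No such share was computed for pairs of other genes.

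The balance within several families was uneven in both genotypes. In wild type libraries Smyd2 exceeded Smyd3 by 6.97-fold per length, Kdm2a exceeded Kdm2b by 5.89-fold and Setdb1 exceeded Setdb2 by 5.19-fold. Ezh1 exceeded Ezh2 by 4.96-fold. Ehmt2 exceeded Ehmt1 by 4.22-fold. Kdm7a exceeded Phf8 by 3.97-fold and Setd1a exceeded Setd1b by 3.01-fold. In heterozygous libraries these folds ran from 2.71 for Setd1a to 6.90 for Smyd2. With the longest transcript as the length the wild type folds ran from 2.31 for Setd1a to 8.30 for Smyd2. Exons of Setd1a and Smyd2 overlap those of other genes, so the origin of their reads is less certain. Other pairs were closer, such as Kdm4c over Kdm4a at 1.165-fold in wild type. Nsd1 and Nsd2 were near parity, at 1.09-fold in favour of Nsd2, and so by the union of exons only, since the longest transcript gave 1.72-fold.

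**Figure D4:**
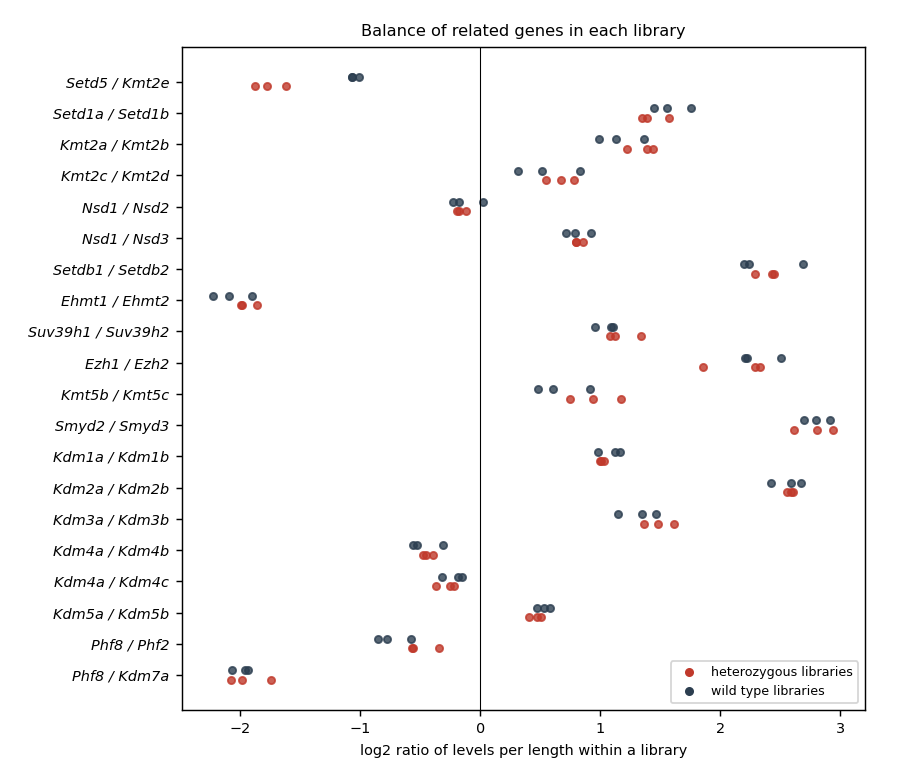
Log2 ratio of levels per length for 20 pairs of related genes, with 1 point per library. The Setd5 to Kmt2e ratios lie between -1.88 and -1.62 in heterozygous and between -1.07 and -1.01 in wild type libraries, and the Phf8 to Phf2 ratios are the only others that do not overlap.

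One wild type library lay below the others for many members. Wild type replicate 2 was the lowest of the 6 for 26 of 49 members, while it was the lowest for 20.1% of genes with a mean of at least 1 CPM. Wild type replicate 3 was the highest for 18 members, and for 27.1% of those genes. The place of wild type replicate 2 was counted by transcript GC content, as a description without a test, since the members share these libraries. Wild type replicate 2 was the lowest library for 16 of the 24 members with the higher transcript GC content (50% to 60.8%) and for 10 of the 25 with the lower (39.6% to 49.7%). Split at the same GC content, the genes with a mean of at least 1 CPM had this library lowest in 25.6% and 15% of cases. The members' median deviation in wild type replicate 2 from the wild type mean was -0.18 for the higher GC content and -0.05 for the lower. Across the 49 genes, which share these libraries and are not independent, Spearman's rho between GC and the log2 difference of wild type replicate 2 from replicate 3 was -0.60, and -0.47 from replicate 1.

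With wild type replicate 2 left out, 8 members met an unadjusted p under 0.05 in edgeR, all of them lower in heterozygous libraries. In that fit 8.89% of all genes met this level in either direction, against 5.83% with all 6 libraries. Besides Setd5 and Setd3 these were Setd1a, Kmt2d, Ehmt2, Kmt5c, Setd6 and Phf2, with differences from -0.20 for Setd1a to -0.48 for Setd6 and transcript GC from 55.4% for Setd6 to 60.8% for Ehmt2. The edgeR adjusted p was 0.0868 for Setd5 and 0.369 for Setd3, and at least 0.466 for the other 6. Groups did not overlap for 21 members in that comparison of 3 with 2 libraries, where 26.34% of all genes did not. With wild type replicate 1 left out, Kmt2a and Kdm6b met an unadjusted p under 0.05, both higher, and with wild type replicate 3 left out Kdm5b did, at 0.14 (edgeR adjusted p = 0.746). Setd5 also met it in both fits, where 6.63% and 6.69% of all genes did in either direction. Whether GC content or tissue content lies behind the spread between wild type libraries was not tested.

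**Figure D5:**
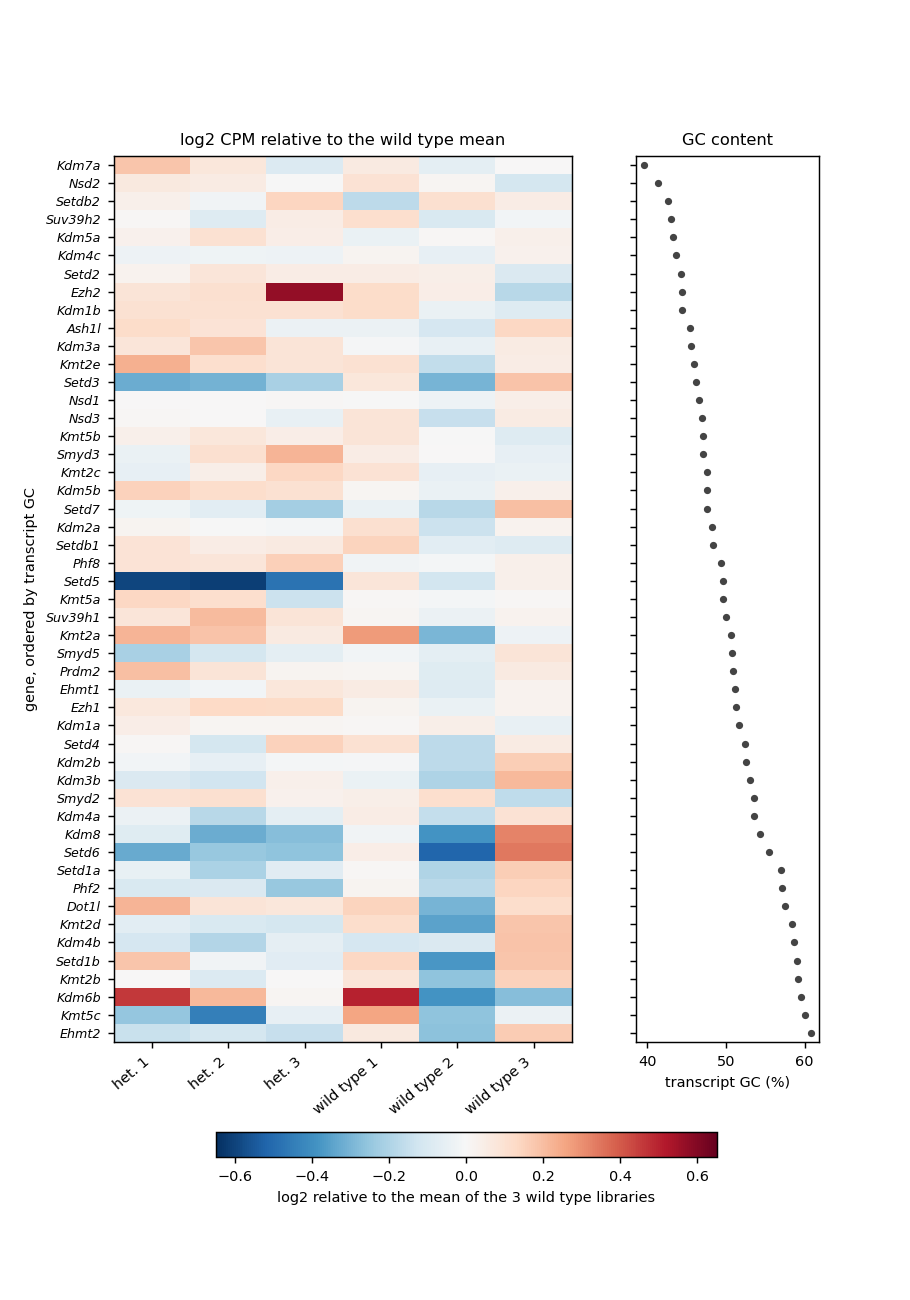
Log2 CPM of the 49 genes against the wild type mean, ordered by transcript GC content, which is plotted on the right in percent. Setd5 is low in the 3 heterozygous libraries, and wild type replicate 2 is low in many of the GC-rich genes, with a median of -0.18 in the upper 24.

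The partners, readers and counterparts of these enzymes were examined as lists in the same fit, and 0 of their genes were called by edgeR at the adjusted threshold of 0.05. Of the 114 genes tested over 9 lists, 5 (4.39%) met an unadjusted p under 0.05 in either direction, a share near the 5.83% of all genes. Among 24 tested of 27 other lysine methyltransferases and demethylases, Hr, a JmjC protein of hair and brain, was at 58.4, 49.5 and 44.3 CPM in heterozygous and 40.8, 42.6 and 39.4 CPM in wild type replicates 1 to 3, a difference of 0.31 (SE 0.10). Prdm6 differed by -0.89 (SE 0.27), at levels of 0.449 to 1.16 CPM, and Riox2 by -0.32 (SE 0.13). Mtf2, an accessory subunit of PRC2, was 1 of 9 genes of that list and differed by 0.18 (SE 0.06), with groups that did not overlap. Hmg20b was 1 of 9 in the list of the LSD1-CoREST complex and differed by -0.21 (SE 0.09). None of 15 COMPASS subunits, 12 readers and partners of H3K9 methylation, 8 readers of H3K36 methylation, 9 protein arginine methyltransferases, 10 histone acetyltransferases or 18 histone deacetylases met that level. Their median differences were 0.02, 0.03, 0.06, -0.002, 0.02 and -0.02. Without wild type replicate 2 the count over all lists was 15 in place of 5, in a fit where 8.89% of all genes met that level. The count was 3 without heterozygous replicate 1 and 2 without heterozygous replicate 2, where 3.91% and 3.07% of all genes did.

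Cell type markers were read from the same fit, in which 0 of them passed edgeR's adjusted p under 0.05, and the lists themselves were not tested. All 5 endothelial and all 4 pericyte markers lay below wild type, 4 of each list at an unadjusted p under 0.05, and their summed levels were 60.9 to 62.1 against 73.4 to 75.3 CPM and 52.1 to 56.2 against 67.6 to 78.6 CPM. All 5 meningeal fibroblast markers lay below wild type, at a summed 34.8 to 39.3 CPM against 37.3 to 80.7 CPM, as did 5 of 5 microglial (219 to 244 against 239 to 276 CPM), 5 of 5 astrocytic (3930 to 4231 against 4137 to 4326 CPM) and 3 of 3 oligodendrocyte precursor markers (85.5 to 104 against 105 to 112 CPM). All 4 oligodendrocyte markers lay above wild type, at 9282 to 13610 against 7595 to 9946 CPM. Blood cell markers summed to 17.5 to 19.6 against 19.8 to 24.9 CPM, and those of choroid plexus and ependyma to 4.89 to 10.5 against 5.99 to 13.5 CPM. That level was also met, lower, by 4 of 5 meningeal fibroblast, 2 of 5 microglial, 2 of 5 astrocytic and 2 of 3 oligodendrocyte precursor markers. It was met, lower, by 1 blood cell and 1 choroid plexus and ependyma marker and, higher, by 2 of 4 oligodendrocyte markers. No neuronal, striatal or dividing cell marker met it. Of all genes tested 3.38% were lower and 2.44% higher at that level. The part of these marker differences in the members' values was not tested.

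Promoter sequence did not enter the choice of members and was described for those with a window, without a test. RefSeq windows of 300 bases, from 250 before to 50 after the annotated start, lay within 1000 bases of the M21 start for 34 members. The table's Setd5 window lies 27.6 kb from that start and was left out. The median window held 28 CpG dinucleotides, against 16 in all 14265 windows, and a GC content of 63.2% against 58.0%. Searched on both strands, TATAAA was in 0 of 34 windows and in 11.2% of all windows, and GGGCGG, the GC box, in 70.6% against 51.8%. CCAAT was in 41.2% against 38.9%, CCGGAAG in 14.7% against 13.3%, GCGCATGC in 2.9% against 4.1% and CACGTG in 2.9% against 8.6%. AAGATGGCG, a YY1 core, was in 4 windows (Dot1l, Phf8, Smyd5 and Suv39h2), or 11.8% against 2.2%. These are matches of letters, not measured sites. Members ranged from 0 to 65 CpG per window. To show that range, the 250 bases before the start are printed for Kdm7a (chr6:39206774-39207023, minus strand), Setd3 (chr12:108179285-108179534, minus strand) and Kdm4c (chr4:74242247-74242496, plus strand), 5′ to 3′ in GRCm38.p6, with each CpG in capitals. They hold 56, 31 and 0 CpG.
Kdm7a: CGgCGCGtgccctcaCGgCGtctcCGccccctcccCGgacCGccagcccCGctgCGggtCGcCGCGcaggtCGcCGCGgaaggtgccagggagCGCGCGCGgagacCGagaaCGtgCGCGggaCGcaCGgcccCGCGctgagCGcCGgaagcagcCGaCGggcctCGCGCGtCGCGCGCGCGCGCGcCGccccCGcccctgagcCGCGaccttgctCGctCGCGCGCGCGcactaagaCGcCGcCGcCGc
Setd3: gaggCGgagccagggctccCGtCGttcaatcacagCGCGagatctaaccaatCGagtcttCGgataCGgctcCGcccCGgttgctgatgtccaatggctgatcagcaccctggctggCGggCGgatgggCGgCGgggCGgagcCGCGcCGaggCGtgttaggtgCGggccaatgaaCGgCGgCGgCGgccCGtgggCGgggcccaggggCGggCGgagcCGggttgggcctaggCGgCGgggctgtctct
Kdm4c: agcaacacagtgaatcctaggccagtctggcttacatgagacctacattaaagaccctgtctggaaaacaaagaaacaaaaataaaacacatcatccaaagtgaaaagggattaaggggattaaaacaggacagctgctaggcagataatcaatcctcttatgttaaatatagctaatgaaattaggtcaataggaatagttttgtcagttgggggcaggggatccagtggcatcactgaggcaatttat

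A gene on the opposite strand started within 1000 bases upstream of the start, or a short way inside it, for 10 of the 49 members (20.4%). The same held for 12.6% of protein-coding genes. For Setd5 this was Gt(ROSA)26Sor, which starts 32 bases away. Setd3 has the cyclin gene Ccnk at 265 bases and Setdb2 has Cab39l at 88 bases. Exons of 27 members overlapped no other gene, and 3 members had over 20% of exonic bases overlapped, which were Setd1a, Smyd2 and Kdm3b.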

How the data were processed

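Raw counts per gene were deposited by the authors as 1 table per library, in whole numbers and not normalized. Per the submitters' processing notes the authors used Bowtie2 2.3.4.3, FastQC, DESeq2 and featureCounts, and the builds mm10 and GRCm38.p6. The strand setting, and how reads with several matches were counted, is not given in the sources used here. Libraries were made with a kit that does not mark strand, per the labels' protocols, so overlapping antisense genes cannot be told apart.

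All 55450 identifiers matched GENCODE M21. Genes were tested in edgeR 4.0.16 (R 4.3.3) with TMM scaling, filterByExpr (minimum count 10, minimum total 15), glmQLFit and glmQLFTest on genotype over all 6 libraries, with Benjamini-Hochberg adjustment over the 27939 genes tested and a threshold of 0.05. Depth was 82850628 to 92860628 counts per library and the common biological coefficient of variation 16.1%. Standard errors and 95% intervals come from that fit. Levels per length use the union of exons. The procedure was tested on simulated data. Replicate numbers follow record order and pair nothing.

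The members, lists and tests were chosen with earlier results of these data known. Values per library are given for Setd5 and Kmt2e, members at an unadjusted p under 0.05, the highest and lowest per length in each role of 4 or more genes, and pairs whose ratio did not overlap. Suv39h1, Ezh2, Kdm6b, Nsd1, Hr and Kdm5d, and Kdm5c in part, were also given per library after their values were seen. Up to 2 genes by smallest p were named per list of partners, and Riox2 was added as the remaining gene at that level.

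Alternatives were other scalings, other filters, DESeq2 1.42.0, edgeR's likelihood ratio test, limma-voom 3.58.1 with and without quality weights, the Xist class as a covariate, each library left out, and the longest transcript as length. Removal of a GC trend was chosen after seeing the data. DESeq2's independent filtering was set to the 0.05 threshold after its calls at the default of 0.1 had been seen, and after an earlier count of 62 from these data was known. It called 62 genes at 0.05 and 63 at 0.1, with Setd5 the only member called at either.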

Additional observations from a re-analysis of the deposited data

How the results depend on the processing

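Setd5 was called in DESeq2 (log2 difference -0.57), with no filter beyond 1 count per gene (-0.57), in limma-voom with quality weights (-0.59) and by the likelihood ratio test (-0.56), so the number of members called was 1 there and 0 in the other 13 alternatives. Of the 48 other members 30 kept their sign under every alternative run. With the likelihood ratio test 11 members had an interval within 0.25 and the lists of partners held 3 genes at an unadjusted p under 0.05. With quality weights 1 member was higher at that level and the lists held 8. In these fits 5.01% and 7.91% of all genes met that level in either direction. The longest transcript as length put the members' median at 6.82 CPM per kb.

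Leaving out each library in turn gave -0.62 to -0.52 for Setd5, 0 called members, 0 to 2 higher and 1 to 8 lower at an unadjusted p under 0.05, 24 to 35 above wild type, 9 to 23 with an interval within 0.25, 6 to 21 without overlap, 2 to 8 pairs without overlap, 2 to 15 partner genes, a median difference of -0.007 to 0.045 and a median level of 4.69 to 4.86 CPM per kb. Of all genes in these fits, 3.07% to 8.89% met an unadjusted p under 0.05 in either direction and 17.46% to 26.34% did not overlap.

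Signs reversed in small differences. Kdm2a was at -0.0017 with DESeq2 size factors, -0.0016 in DESeq2, -0.0104 with the upper quartile, -0.0164 with library totals, -0.0096 with every gene, -0.0174 with quality weights and -0.006 with the GC trend removed. Nsd1 was at -0.0085, -0.0133, -0.0075 and -0.0071 with the upper quartile, library totals, every gene and the GC trend removed. Ehmt1 was at -0.0049, -0.0105, -0.0044 and -0.0138 with the upper quartile, library totals, every gene and quality weights. Setd4 was at -0.0285 with quality weights and Kmt2b at 0.0048 with the GC trend removed. With a library left out the ranges were -0.1307 to 0.1313 for Setd1b, -0.0186 to 0.0221 for Nsd1, -0.0128 to 0.1191 for Kmt5a, -0.0696 to 0.0573 for Kdm2a, -0.0095 to 0.125 for Kdm7a, -0.145 to 0.0539 for Kmt2b, -0.0599 to 0.05 for Suv39h2, -0.0116 to 0.0914 for Kmt2c, -0.0855 to 0.0342 for Nsd3, -0.0373 to 0.0342 for Ehmt1, -0.0635 to 0.0805 for Setd4, -0.0256 to 0.1027 for Setdb2, -0.0065 to 0.207 for Dot1l, -0.2469 to 0.0033 for Kmt2d, -0.0141 to 0.0895 for Nsd2, -0.1881 to 0.008 for Setd7, -0.1118 to 0.0591 for Kdm2b and -0.1553 to 0.0601 for Kdm3b. The cause was not tested. A two-sided exact permutation test of 3 against 3 libraries cannot go below 0.1.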
